A study of Mus musculus with 10 samples.

Results

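The gene segments of the T cell receptor were followed in poly(A) RNA of primary mouse spleen T cells and B cells after CRISPR interference at Pou2f1. In this method a Cas9 that cannot cut is led by a guide RNA to a promoter and lowers its activity. Pou2f1 encodes Oct-1, a POU-domain factor that binds octamer motifs. The segments were chosen by gene symbol alone, from the variable, diversity and joining segments of the alpha, beta, gamma and delta loci and the constant genes Trac, Trbc1, Trbc2 and Trdc. They came to 264 of the 56893 genes counted. There were 130 Trav, 60 Traj, 35 Trbv, 2 Trbd, 14 Trbj, 7 Trgv, 4 Trgj, 6 Trdv and 2 Trdj segments beside the 4 constant genes. The symbol rule does not take the gamma constant genes.

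The groups were T cells with the guide sgRNA-P1, mock T cells, B cells with sgRNA-P1, B cells with sgRNA-P2 and mock B cells. Per the series' description, sgRNA-P1 addresses the P1 promoter of Pou2f1, and in B cells P1 and P2 were both addressed. The labels give no strain, age, sort or time of treatment and do not say whether groups came from separate animals. Each group has 2 columns, which differed by far less than sampling noise, as 1 library divided in a fixed proportion would, and count as 1 sample. After summing, there were 39352816 reads in sgRNA-P1 T cells, 71858511 in mock T cells, 49066261 in sgRNA-P1 B cells, 28118839 in sgRNA-P2 B cells and 33842813 in mock B cells. With 1 library per group, a comparison of 2 groups has no replicate check and no p-value. Brackets give 95% counting intervals, which cover counting error only. Levels are CPM, read counts scaled to library size with TMM factors, and levels of different genes are compared only per kilobase of exon. In bulk RNA, fewer T cells and less receptor RNA per T cell cannot be told apart.

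A T cell receptor gene is assembled in the thymus by DNA recombination. In the beta and delta loci a variable, a diversity and a joining segment are joined, and in the alpha and gamma loci a variable and a joining segment. The joined exon is then spliced to a constant gene. Alpha pairs with beta on most spleen T cells and gamma with delta on a minor set. The receptor reaches the cell surface only with the CD3 chains.

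The libraries carried the markers of their labels. Pou2f1 stood at 66.1 CPM in sgRNA-P1 T cells and 138 CPM in mock T cells, a log2 fold change of -1.06 [-1.15 to -0.97]. Its exons share 3007 bases with those of Cd247, a T cell gene, and the strand setting is not known. The part of Cd247 reads in these T cell levels was not tested. In B cells Pou2f1 stood at 91.1 CPM with sgRNA-P1 and 86.5 CPM with sgRNA-P2, against 157 CPM in mock B cells. The 9 markers of alpha-beta T cells summed to 3737 and 3778 CPM in sgRNA-P1 and mock T cells, against 3.28 to 3.96 CPM in the 3 B cell libraries, with Cd5 leading there. The 6 B cell markers summed to 333 CPM in sgRNA-P1 T cells and 353 CPM in mock T cells, of which Ighm gave 323 and 341 CPM. None of the 6 was at 0 reads in a T cell library. Their part in the results below was not tested.

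In total, receptor RNA was at nearly the same level in the libraries of both T cell groups. All 264 segments together gave 104310 reads in sgRNA-P1 T cells and 190124 reads in mock T cells. That is 2612 CPM [2590 to 2635] in sgRNA-P1 T cells and 2636 CPM [2620 to 2653] in mock T cells. The log2 fold change of sgRNA-P1 over mock was -0.01 [-0.03 to 0.00]. In the B cell libraries the same segments gave 30 reads with sgRNA-P1 and 16 reads with sgRNA-P2, against 12 reads in mock B cells. These are 0.622 CPM with sgRNA-P1 and 0.569 CPM with sgRNA-P2, against 0.355 CPM in mock B cells. A read was found for 224 of the 264 segments in a T cell library and for 14 in a B cell library. For 40 segments no library held a read.

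**Figure D1:**
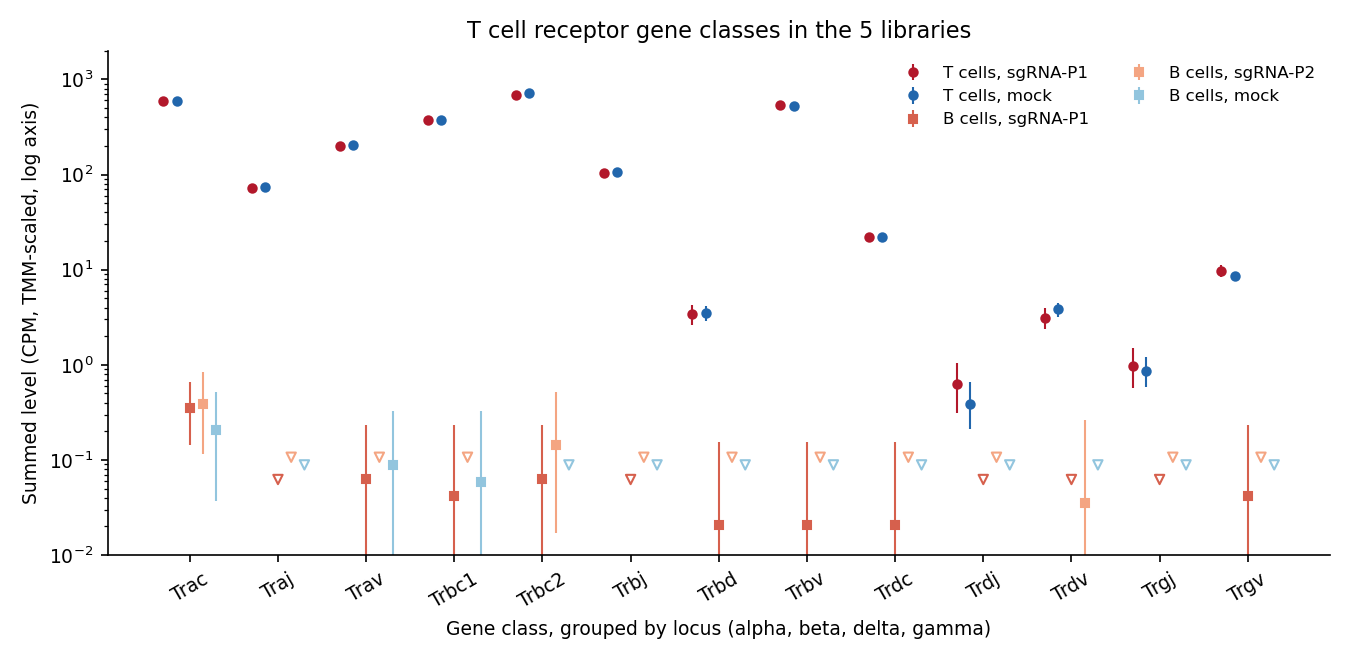
Summed level of each receptor gene class (CPM, log axis) in the 5 libraries, with 95% Poisson counting intervals; open triangles mark classes with 0 reads, drawn at the level of 3 reads. Trac, for example, is at 588 CPM in sgRNA-P1 T cells and 591 CPM in mock T cells, and at most 0.391 CPM in a B cell library.

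The 4 constant genes, which encode the membrane-near part of each chain, gave most of the reads. Trac, the alpha constant gene on chromosome 14 from 54457978 to 54461663 in the deposited coordinates, had 23485 reads in sgRNA-P1 T cells and 42597 in mock T cells. Its levels were 588 CPM [577 to 599] in sgRNA-P1 T cells and 591 CPM [583 to 599] in mock T cells, giving a log2 fold change of -0.01 [-0.04 to 0.03]. The intervals of the libraries overlap. Trbc1, the beta constant gene that follows the Trbj1 cluster, was at 379 CPM in sgRNA-P1 T cells and 373 CPM in mock T cells, a log2 fold change of 0.02 [-0.02 to 0.06]. Trbc2, which follows the Trbj2 cluster, was at 690.3 CPM in sgRNA-P1 T cells and 724 CPM in mock T cells. Its log2 fold change was -0.07 [-0.10 to -0.04], an interval that excludes 0 at 0.954-fold. Trdc, the delta constant gene, whose exons overlap those of Trdv5 and of another annotated gene, was at 22.1 CPM in sgRNA-P1 T cells and 22.0 CPM in mock T cells, a log2 fold change of 0.00 [-0.17 to 0.17].

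The split of beta constant reads between Trbc1 and Trbc2 is uncertain, since the first 300 bases of their transcripts differ by 1 edit and it is not known how reads fitting both were assigned. Trbc1 took 35.4% [34.8 to 36.1] of their joint reads in sgRNA-P1 T cells and 34.0% [33.5 to 34.5] in mock T cells. Upstream of them, the Trbj1 cluster took 59.4% [57.3 to 61.5] of Trbj reads in sgRNA-P1 T cells and 60.1% [58.6 to 61.7] in mock T cells. Summed, per kilobase, Trbc1 and Trbc2 stood at 2.40 times the level of Trac in sgRNA-P1 T cells and 2.46 times in mock T cells. Trdc per kilobase was 0.908% of Trac in sgRNA-P1 T cells and 0.901% in mock T cells.

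Across single segments, 48 members reached 5 CPM in either T cell library: 15 Trav, 2 Traj, 17 Trbv, 10 Trbj and the 4 constant genes. None of them differed by 1.5-fold or more between sgRNA-P1 and mock T cells. Over all genes at this level, 11 of 10007 did, or 0.11%, so a count of 0 in 48 is near the background. The members' log2 fold changes ran from -0.29 for Traj3 to 0.36 for Trav14n-3, with 22 above 0 and 26 below. Their median was -0.01, against -0.02 over all 10007 genes. The counting interval excluded 0 for 4 of the 48, against 14.8% of all genes (4.37% higher and 10.4% lower). These were Trbv3 and Trav14n-3, both higher in sgRNA-P1 T cells, and Trbv15 and Trbc2, both lower.

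**Figure D2:**
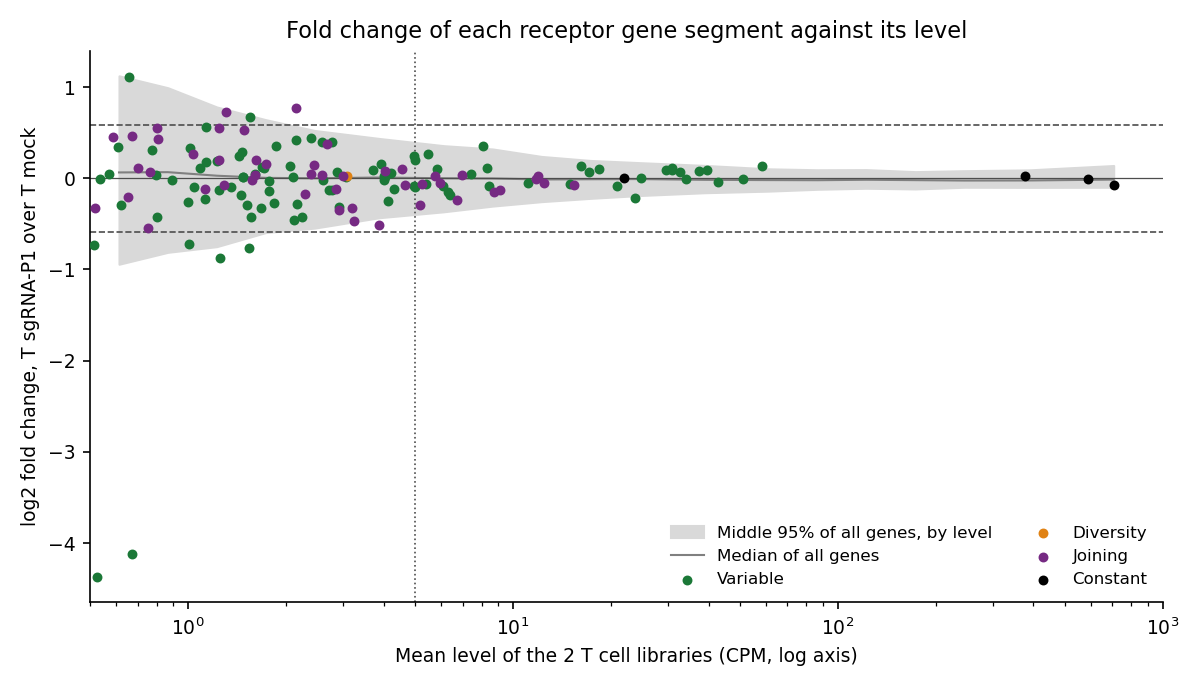
Log2 fold change of each member (sgRNA-P1 over mock T cells) against its mean level in the T cell libraries (CPM, log axis; members under 0.5 CPM not drawn); the grey band holds the middle 95% of all genes in each level range, dashed lines mark 1.5-fold and the dotted line 5 CPM. At 5 CPM or more every point lies between -0.29 and 0.36, and the variable segments Trav5d-4 and Trav7n-6, under 1 CPM on average, lie at -4.38 and -4.12.

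Beta variable segments, whose exons encode most of the part of the beta chain that meets the antigen, held the most reads of the variable classes. Trbv segments summed to 539 CPM [529 to 549] in sgRNA-P1 T cells and 527 CPM [520 to 535] in mock T cells. Per kilobase the highest was Trbv13-2, a segment used by many invariant natural killer T cells, at 149.5 CPM per kb in sgRNA-P1 T cells and 150.6 in mock T cells. It was followed by Trbv3 with 134 CPM per kb in sgRNA-P1 T cells and 123 in mock T cells. Trbv16 came next with 107 CPM per kb in sgRNA-P1 T cells and 109 in mock T cells, then Trbv1 with 98.1 and 92.2 and Trbv13-3 with 93.4 and 87.6. The order of these 5 is the same in each library.

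Trbv3 had 2440 reads in sgRNA-P1 T cells and 4027 in mock T cells, which is 61.1 CPM and 55.8 CPM, a log2 fold change of 0.13 [0.03 to 0.23]. Trbv15 had 877 reads in sgRNA-P1 T cells and 1844 in mock T cells, which is 22.0 CPM and 25.6 CPM, a log2 fold change of -0.22 [-0.39 to -0.06]. These are the 2 beta variable segments at 5 CPM whose intervals exclude 0, and neither reached 1.5-fold. Trbv26, the highest fold change of the class at 5 CPM, had 675 reads in sgRNA-P1 T cells and 1113 in mock T cells, giving a log2 fold change of 0.13 [-0.07 to 0.33]. The profile difference, the share of reads that would have to be in other segments to make the profiles equal, was 2.62% for Trbv. Counting error alone lifts this measure above 0 in every class, more so with fewer reads per segment. Its part in the values given here and below was not tested. The Pearson correlation of shares over the 35 segments was 0.997, a description of points that share library and sequence.

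**Figure D3:**
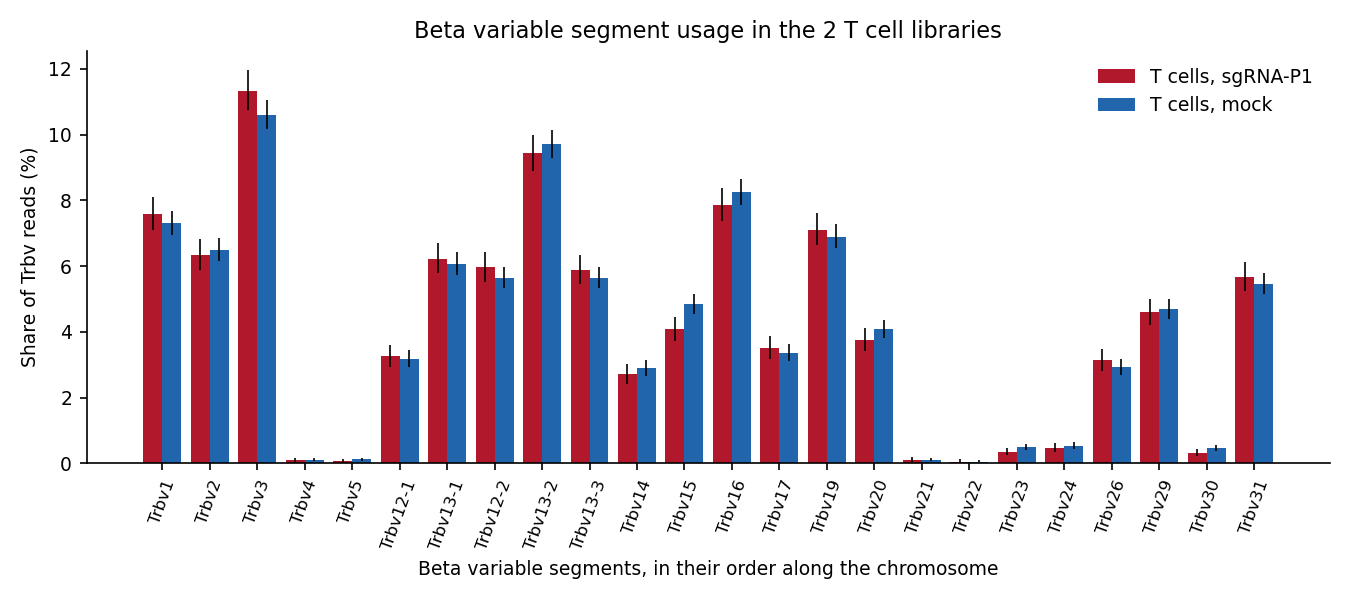
Share of Trbv reads (%) held by each beta variable segment with at least 20 reads, in chromosome order, with sgRNA-P1 T cells left of mock T cells and 95% Wilson counting intervals. Trbv3 holds 11.3% in sgRNA-P1 T cells and 10.6% in mock T cells, Trbv15 holds 4.08% and 4.85%, and Trbv29 has 4.59% and 4.70%.

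RefSeq annotates 13 of the 35 Trbv segments as pseudogenes, and 12 of these held at most 12 reads in sgRNA-P1 T cells and 22 in mock T cells. The exception was Trbv29, with 988 reads in sgRNA-P1 T cells and 1787 in mock T cells, 24.7 and 24.8 CPM. GENCODE M21 lists Trbv29 as a functional variable gene. Trbv31, which lies beyond Trbc2 in reverse orientation, had 1221 reads in sgRNA-P1 T cells and 2077 in mock T cells, a log2 fold change of 0.09 [-0.06 to 0.23]. Trbv4 and Trbv5 share exon bases with another annotated gene, so their 21 and 15 reads in sgRNA-P1 T cells and 39 and 47 reads in mock T cells are uncertain.

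The diversity segments are the shortest members and are shown because their whole sequence is a few guanine-rich codons. Both are from GENCODE M21 on GRCm38, read on the coding strand, 5′ to 3′, and carry no capitals.
Trbd1: gggacagggggc
Trbd2: gggactgggggggc
Trbd1 had 124 reads in sgRNA-P1 T cells and 220 in mock T cells, 3.11 and 3.05 CPM. Trbd2 had 11 reads in sgRNA-P1 T cells and 32 in mock T cells, 0.275 and 0.444 CPM, a log2 fold change of -0.61 [-2.63 to 0.69]. Trbd1 thus held 91.9% of the diversity reads in sgRNA-P1 T cells and 87.3% in mock T cells. A read that spans a joined exon holds few bases of either segment, and how such reads were counted is not given in the sources used here.

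Joining segments supply the end of the variable domain, where most carry a phenylalanine or tryptophan followed by glycine, any residue and glycine. The beta joining segments with the highest level per kilobase, Trbj1-5 and Trbj2-7, are shown with that motif in capitals. Trbj2-6, annotated as a pseudogene, and Trbj1-7 are shown because they hold reads without the motif. The sequences are from GENCODE M21 on GRCm38.
Trbj1-5: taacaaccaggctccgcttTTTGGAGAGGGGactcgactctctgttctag
Trbj2-7: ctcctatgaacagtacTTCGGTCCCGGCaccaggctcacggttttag
Trbj2-6: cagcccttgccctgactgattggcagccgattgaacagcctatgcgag
Trbj1-7: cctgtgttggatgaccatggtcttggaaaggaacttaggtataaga
The motif was searched on the coding strand only, as TTNGGNNNNGGN or TGGGGNNNNGGN, which may overlap and of which the first also takes leucine codons. It was found in 11 of 14 Trbj segments (78.6%). Segments without it, which include Trbj1-6, held 22.4% of Trbj reads in sgRNA-P1 T cells and 24.4% in mock T cells. A missing match says only that these letters are not in the segment.

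Trbj1-5 stood at 301 CPM per kb in sgRNA-P1 T cells and 317 in mock T cells, from 601 and 1142 reads. Trbj2-7 stood at 249 CPM per kb in sgRNA-P1 T cells and 251 in mock T cells. The pseudogene Trbj2-6 was the fifth of the 14 in each library, at 181 CPM per kb in sgRNA-P1 T cells and 198 in mock T cells, from 346 and 686 reads. Being annotated as a pseudogene or lacking the motif did not place a segment at the low end. Trbj1-7 had 245 reads in sgRNA-P1 T cells and 524 in mock T cells, a log2 fold change of -0.24 [-0.57 to 0.07], the smallest of the class at 5 CPM. Trbj1-1 was the lowest, with 27 reads in sgRNA-P1 T cells and 36 in mock T cells. All Trbj reads summed to 103 CPM [99.0 to 108] in sgRNA-P1 T cells and 107 CPM [103 to 110.1] in mock T cells. The profiles differed by 2.44%, and no segment's interval of the fold change excluded 0.

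The alpha joining segments form a row of 60 that ends just before Trac. Their level per kilobase went up along that row toward Trac in both T cell libraries. Traj1 to Traj9, the nearest, held 45.2% [42.6 to 47.7] of Traj reads in sgRNA-P1 T cells and 48.7% [46.8 to 50.6] in mock T cells. Traj11 to Traj20 held 29.0% in sgRNA-P1 T cells and 27.1% in mock T cells. The next blocks held less. Traj21 to Traj30 held 15.4% and 13.4%, and Traj31 to Traj40 held 7.46% and 6.94%, in sgRNA-P1 and mock T cells. The farthest block, Traj51 to Traj61, held 0.833% [0.477 to 1.45] in sgRNA-P1 T cells and 0.991% [0.665 to 1.42] in mock T cells. The Spearman correlation of position and CPM per kb over the 60 segments was 0.960 in sgRNA-P1 T cells and 0.962 in mock T cells, a description of points within a library.

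**Figure D4:**
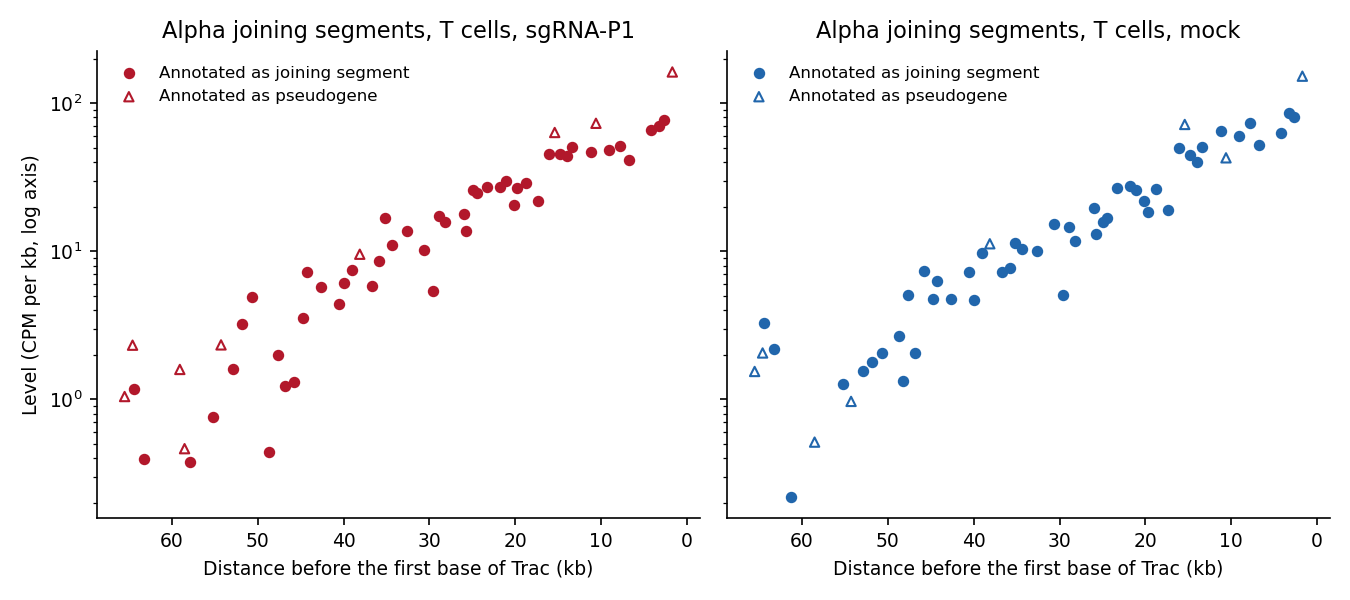
Level of each alpha joining segment (CPM per kb, log axis) against its distance before the first base of Trac (kb), for sgRNA-P1 T cells on the left and mock T cells on the right; triangles are segments annotated as pseudogenes, and segments with no read are not drawn. Traj1, 1.71 kb before Trac and 29 bases long, is highest per kb in each library, at 162 CPM per kb in sgRNA-P1 T cells and 152 in mock T cells. By reads, Traj2 is above it in each library.

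The segments nearest Trac included pseudogenes. The sequences below, from GENCODE M21 on GRCm38, contrast Traj2, which has the motif in capitals, with Traj3 and with the pseudogenes Traj1, Traj14 and Traj8, in which it was not found.
Traj2: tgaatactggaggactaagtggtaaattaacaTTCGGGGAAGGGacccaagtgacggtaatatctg
Traj3: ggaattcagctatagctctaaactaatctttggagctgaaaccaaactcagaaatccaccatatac
Traj1: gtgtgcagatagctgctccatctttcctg
Traj14: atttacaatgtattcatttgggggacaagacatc
Traj8: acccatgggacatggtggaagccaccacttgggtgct
The motif was found in 47 of 60 Traj segments (78.3%) and in 2 of the 9 annotated as pseudogenes. Segments without it held 26.2% of Traj reads in sgRNA-P1 T cells and 25.4% in mock T cells. Among Traj1 to Traj20, the 3 pseudogenes had a median of 73.1 CPM per kb in sgRNA-P1 T cells and 71.8 in mock T cells. The 16 others there had medians of 45.6 and 49.9 CPM per kb. So in that stretch the pseudogenes were counted, per kilobase, at levels inside or above the range of the other segments. Traj1, Traj14 and Traj8 are 29, 34 and 37 bases long, against 66 for Traj2 and Traj3. For the same reads, division by length gives the shortest segments the highest values, and the part of length in these medians was not tested. Beyond Traj20 the order of the medians was the other way round. The 6 pseudogenes there had a median of 1.95 CPM per kb in sgRNA-P1 T cells and 1.254 in mock T cells, against 5.75 and 6.30 for the 35 other segments, which lie at differing distances.

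Traj reads summed to 72.1 CPM [68.4 to 75.9] in sgRNA-P1 T cells and 74.1 CPM [71.3 to 77.0] in mock T cells. The profile difference was 9.49%, with fewer reads per segment than in the beta classes. Traj2 and Traj3 reached 5 CPM. Traj3 had 185 reads in sgRNA-P1 T cells and 411 in mock T cells, a log2 fold change of -0.29 [-0.67 to 0.06]. Traj2 had 204 reads in sgRNA-P1 T cells and 386 in mock T cells, a log2 fold change of -0.06 [-0.43 to 0.29]. Neither interval excludes 0. Below 5 CPM the differences were wider. Traj6 had 127 reads in sgRNA-P1 T cells and 328 in mock T cells, giving a log2 fold change of -0.51 [-0.97 to -0.10]. Traj9 had 108 reads in sgRNA-P1 T cells and 271 in mock T cells, -0.47 [-0.95 to 0.00]. Traj8 went the other way, with 108 reads in sgRNA-P1 T cells and 114 in mock T cells, a log2 fold change of 0.78 [0.21 to 1.34].

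Alpha variable segments form the largest class, and many exist in duplicated copies whose symbols carry the letters d and n. They summed to 201 CPM [195 to 207] in sgRNA-P1 T cells and 202 CPM [197 to 207] in mock T cells. Per kilobase the highest was Trav14-1, at 27.4 CPM per kb in sgRNA-P1 T cells and 28.4 in mock T cells, from 437 and 817 reads. Trav14n-3 had 25.2 CPM per kb in sgRNA-P1 T cells and 19.7 in mock T cells, Trav3-3 had 20.7 and 19.1, and Trav13-1 had 18.1 and 20.2. Reads were spread over many segments: the effective number, the exponential of the Shannon entropy of the shares, was 53.7 in sgRNA-P1 T cells and 56.3 in mock T cells. The same measure was 16.8 and 17.1 for Trbv. The Trav profiles differed by 7.01%, and the part of counting error in this value was not tested.

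Trav14n-3 had the largest log2 fold change at 5 CPM, 0.36 [0.07 to 0.63], with 363 reads in sgRNA-P1 T cells and 512 in mock T cells. Its closest copy is Trav14-3, which differs by 10 edits and had 238 reads in sgRNA-P1 T cells and 359 in mock T cells, 0.26 [-0.08 to 0.61]. The intervals of both copies overlap. Trav16n followed with 215 reads in sgRNA-P1 T cells and 329 in mock T cells, 0.24 [-0.13 to 0.60]. Trav9-1 had 213 and 335 reads, 0.20 [-0.17 to 0.56]. At the low end, Trav7-4 had 238 reads in sgRNA-P1 T cells and 490 in mock T cells, -0.19 [-0.52 to 0.13], and Trav13-1 had 239 and 481 reads, -0.15 [-0.49 to 0.16]. Of these, only the interval of Trav14n-3 excludes 0.

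A near-identical copy, at 97% identity or more over 90% of the length, was sought within each class among members with a sequence of like length. It was found for 72 of the 128 Trav segments with a sequence and in no other class compared. The Trgv, Trbd, Trdj and constant genes had no such partner to compare. Of the 72, 40 have a copy with no difference at all. The 40 held 0.524% of Trav reads in sgRNA-P1 T cells and 1.48% in mock T cells, with a median of 0 and 1 reads. The 32 with a near copy that differs held 37.7% in sgRNA-P1 T cells and 37.8% in mock T cells, with medians of 50.5 and 115 reads. The other 58, of which 2 had no sequence to compare, held 61.8% and 60.7%. Reads in identical copies were thus few in each library. How reads that fit both copies were treated is not given, so the levels of the 40 are uncertain. By symbol, segments with the letter d held 11.5% in sgRNA-P1 T cells and 12.3% in mock T cells, those with n 14.6% and 13.6%, and those with neither 73.9% and 74.1%.

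**Figure D5:**
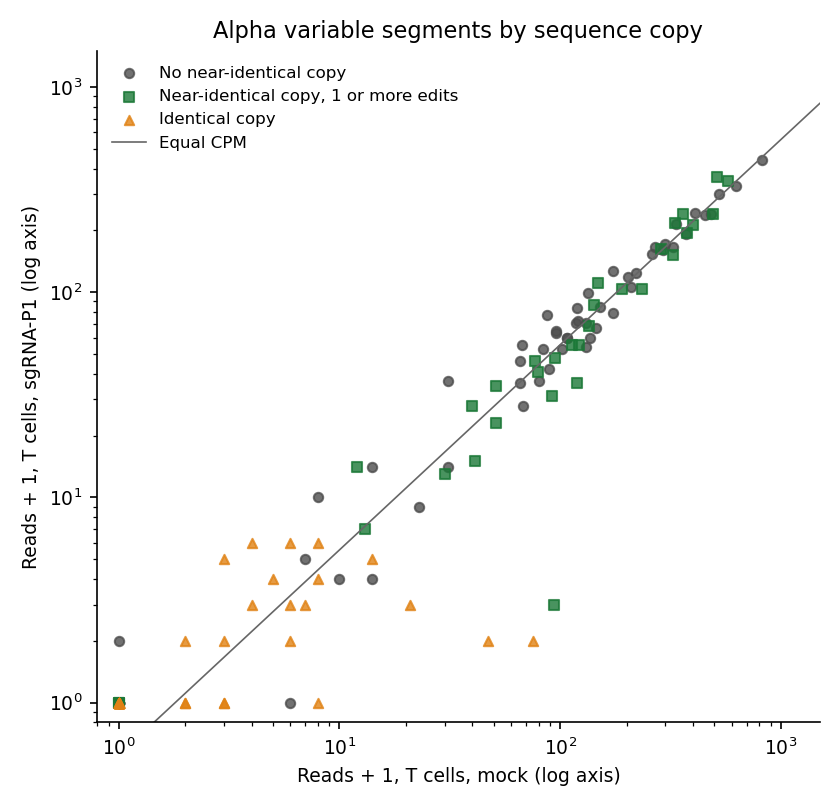
Reads plus 1 of each alpha variable segment in sgRNA-P1 T cells (y) against mock T cells (x), both on log axes, marked by whether another segment has the same or nearly the same sequence; the line is equal CPM. Most points follow the line, and Trav5d-4, Trav15n-2 and Trav7n-6, with 46 to 93 reads in mock T cells, have 1 or 2 reads in sgRNA-P1 T cells.

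A few low-level copies differed widely between the T cell libraries. Trav5d-4 had 1 read in sgRNA-P1 T cells and 74 in mock T cells, where the mock level would have given 41.0 reads. Trav7n-6 had 2 reads in sgRNA-P1 T cells and 93 in mock T cells, where 51.5 would match, and Trav15n-2 had 1 and 46, where 25.5 would match. Trav5d-4 has the same sequence as Trav5n-4, and Trav15n-2 the same as Trav15d-2-dv6d-2. Trav7n-6 differs from Trav7-6 at 9 positions. The lines below show 60-base windows of these segments, bases 83 to 142 of the Trav5 transcripts and 124 to 183 of the Trav7 transcripts from GENCODE M21 on GRCm38, with differing bases in capitals.
Trav5-4: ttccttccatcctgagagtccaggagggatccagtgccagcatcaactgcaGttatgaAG
Trav5d-4: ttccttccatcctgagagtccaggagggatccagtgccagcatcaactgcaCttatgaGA
Trav5n-4: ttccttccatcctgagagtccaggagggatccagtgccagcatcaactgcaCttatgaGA
Trav7-6: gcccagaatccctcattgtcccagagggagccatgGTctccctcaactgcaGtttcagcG
Trav7n-6: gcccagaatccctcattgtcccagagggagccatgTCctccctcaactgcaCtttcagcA
The copies of Trav5d-4 and Trav7n-6 were closer between the libraries or had no read. Trav5-4 had 211 reads in sgRNA-P1 T cells and 398 in mock T cells, a log2 fold change of -0.06 [-0.42 to 0.28], and Trav5n-4 had none in any library. Trav7-6 had 47 reads in sgRNA-P1 T cells and 94 in mock T cells, -0.13 [-0.97 to 0.57]. Between 1 and 5 CPM, 8 of 81 members differed by 1.5-fold or more, against 8.67% of all genes in that range. Beside Trav5d-4 and Trav7n-6 these were Trav6d-4, Trav9d-1 and Trdv1, lower in sgRNA-P1 T cells, and Trav13n-4, Traj24 and Traj8, higher.

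Segments of invariant receptors were looked up by name. Invariant natural killer T cells in the mouse join Trav11 to Traj18, and mucosal-associated invariant T cells join Trav1 to Traj33. Trav11 had 0 reads in each library. Its identical copy Trav11d had 1 read in sgRNA-P1 T cells and 2 in mock T cells. Trav11n, which differs at 8 positions, had 13 reads in sgRNA-P1 T cells and 11 in mock T cells. The windows below, bases 181 to 240 in GENCODE M21 on GRCm38, show 3 of those positions in capitals.
Trav11: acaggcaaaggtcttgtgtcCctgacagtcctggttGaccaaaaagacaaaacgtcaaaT
Trav11n: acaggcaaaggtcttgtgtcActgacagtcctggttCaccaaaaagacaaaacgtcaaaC
The level of Trav11 can thus not be read from these counts. The joining segments that serve these receptors are single, and are shown with the motif in capitals.
Traj18: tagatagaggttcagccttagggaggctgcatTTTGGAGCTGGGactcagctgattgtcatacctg
Traj33: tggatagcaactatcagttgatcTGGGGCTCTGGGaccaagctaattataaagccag
Traj18 had 70 reads in sgRNA-P1 T cells and 88 in mock T cells, 1.75 and 1.22 CPM, a log2 fold change of 0.53 [-0.16 to 1.20]. Traj33 had 38 reads in sgRNA-P1 T cells and 47 in mock T cells, 0.55 [-0.38 to 1.52], and Trav1 had 52 and 83 reads, 0.19 [-0.57 to 0.94]. All 3 intervals include 0. Zbtb16, which encodes the factor PLZF of innate-like T cells, was at 3.31 CPM in sgRNA-P1 T cells and 3.72 CPM in mock T cells, a log2 fold change of -0.16 [-0.62 to 0.27]. The list of genes of invariant NKT and MAIT cells held 3 others. Klrb1c, which encodes the NK1.1 receptor, was at 3.61 CPM in sgRNA-P1 T cells and 3.13 CPM in mock T cells, a log2 fold change of 0.21 [-0.24 to 0.64]. Slamf1 was at 34.1 CPM in sgRNA-P1 T cells and 33.2 CPM in mock T cells, 0.04 [-0.10 to 0.17]. Tbx21, which encodes the factor T-bet, was at 9.87 CPM in sgRNA-P1 T cells and 11.7 CPM in mock T cells, -0.25 [-0.50 to -0.0024], an interval that just excludes 0.

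Gamma and delta segments were low. Trgv segments summed to 9.62 CPM [8.30 to 11.1] in sgRNA-P1 T cells and 8.50 CPM [7.56 to 9.49] in mock T cells. Trgv2 led per kilobase with 8.26 CPM per kb in sgRNA-P1 T cells and 8.19 in mock T cells, from 162 and 290 reads. Trgv1 had 117 reads in sgRNA-P1 T cells and 161 in mock T cells, a log2 fold change of 0.40 [-0.12 to 0.90]. Trgv4 had 65 and 114 reads and shares exon bases with another annotated gene. Gamma variable reads thus came mainly from 3 segments in each library. The joining segments Trgj1, Trgj2 and Trgj4 had 15, 12 and 12 reads in sgRNA-P1 T cells and 31, 21 and 10 reads in mock T cells, and Trgj3 had none.

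Among delta variable segments, Trdv1 had 45 reads in sgRNA-P1 T cells and 140 in mock T cells, where 77.5 would match the mock level. Its log2 fold change was -0.76 [-1.58 to -0.11]. Trdv5, whose exons overlap those of Trdc, had 48 reads in sgRNA-P1 T cells and 77 in mock T cells. Trdv4 had 32 and 57 reads, and Trdv2-2 and Trdv3 had none in any library. Only Trdv1 among them had an interval that excludes 0. Trdj2 had 20 reads in sgRNA-P1 T cells and 19 in mock T cells, and Trdj1 had 5 and 9. The gamma constant genes outside the symbol rule were close between the libraries: Trgc1 had 478 reads in sgRNA-P1 T cells and 911 in mock T cells, Trgc2 had 458 and 807, and Trgc4 had 327 and 607.

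The segments were counted almost entirely in the T cell libraries. The receptor total was 7432-fold [3415 to 20253] higher in mock T cells than in mock B cells, from 190124 and 12 reads. Over the 5 libraries, the quasi-likelihood test of edgeR, fitted on cell type and on presence of a guide, had 2 residual degrees of freedom. It gave log2 fold changes of T over B of 10.83 for Trac, 13.22 for Trbc1, 13.36 for Trbc2 and 10.85 for Trdc. Leaving out sgRNA-P1 T cells gave 11.45 for Trac, 12.55 for Trbc1, 18.00 for Trbc2 and 12.97 for Trdc. Without sgRNA-P1 B cells Trdc gave 12.90, and without sgRNA-P2 B cells Trbc2 gave 14.13. With single columns left out Trdc gave 9.80 and 11.92. With at most 17 reads of any of these genes in a B cell library, the sizes of these folds are uncertain, and the direction was the same in each of these fits. The adjusted p-values by edgeR were 5.68e-19 for Trac, 6.50e-19 for Trbc1, 1.06e-18 for Trbc2 and 3.12e-14 for Trdc. All 4 were higher in each T cell library than in each B cell library. Of 17581 genes tested, 32.4% were called higher in T cells. The 162 members that passed the filter on low counts, these 4 constant genes among them, did so through their T cell reads. They had to differ, so their p-values lend no support, and the other members were not tested. DESeq2 called 103 of the 162. Whether libraries of a cell type came from separate animals is not given, so the p-values measure only the spread between these libraries.

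The few receptor reads in B cells, pooled over the 3 libraries, were not spread over the segments as in T cells. Trac had 17 reads in sgRNA-P1 B cells and 11 in sgRNA-P2 B cells, against 7 in mock B cells. Trbc1 had 2 and 0 reads with the guides and 2 in mock B cells, and Trbc2 had 3 and 4 with the guides and 0 in mock B cells. Over the B cell libraries, 35 of 46 reads of these 3 genes were from Trac, or 76.1% [53.5 to 87.5]. In the T cell libraries the share was 35.2% [34.9 to 35.5], so the pooled intervals do not overlap. By library it was 77.3% [43.4 to 90.3] with sgRNA-P1, 73.3% [35.9 to 91.8] with sgRNA-P2 and 77.8% [30.1 to 95.4] in mock B cells. The interval of mock B cells takes in the T cell share. Variable, diversity and joining segments gave 11 of 58 member reads in B cells, or 19.0% [7.60 to 34.5], against 35.4% [35.1 to 35.6] in T cells. By library, the intervals of sgRNA-P1 B cells [7.05 to 45.2] and mock B cells [3.01 to 56.4] take in the T cell share. That of sgRNA-P2 B cells [0 to 32.4] does not. No Traj or Trbj segment had a read in a B cell library, where 3 reads would be 0.0622 to 0.107 CPM. The largest count after the constant genes was 2, for Trav13n-4.

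Other T cell genes were low in B cells to differing degrees. As a percentage of its level in mock T cells, the joint B cell level was 0.0538% for Trac, 0.0432% for Cd3d and 0.0313% for Cd8b1. It was 0.0252% for Cd8a, 0.0235% for Cd4, 0.0118% for Bcl11b, 0.00942% for Cd3e, 0.00748% for Thy1 and 0.00588% for Cd3g. Trac is thus the highest of these 9, from 35 reads, and Cd3d is close to it from 14. The rank holds only among these 9, since other T cell genes of the lists stood higher relative to mock T cells. Cd5 was at 2.07 to 2.84 CPM in the B cell libraries and 467 CPM in mock T cells. Cd247 was at 0.391 to 0.664 and 314 CPM, and Tcf7 at 1.16 to 1.49 and 1734 CPM. Trac was at 0.207 to 0.391 and 591 CPM. The part of T cells among the B cells in the receptor reads was not tested. Against mock B cells, the receptor total was 1.75-fold [0.643 to 5.52] with sgRNA-P1 and 1.60-fold [0.488 to 5.61] with sgRNA-P2, intervals too wide to show a difference. The mirror image, the 360 immunoglobulin variable and joining segments, summed to 6.81 CPM in sgRNA-P1 T cells and 7.52 CPM in mock T cells. In B cells they summed to 2823 CPM with sgRNA-P1 and 2786 CPM with sgRNA-P2, against 2861 CPM in mock B cells.

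Genes that work with the receptor also stayed within 1.5-fold between the T cell libraries. None of the 4 CD3 and zeta chain genes, the 3 coreceptor genes, the 8 genes of proximal signalling or the 11 genes of factors known at receptor enhancers differed by 1.5-fold. Over all genes at 5 CPM, 11 of 10007 did, or 0.11%, so finding none in these lists is near the background. Cd3e, a signalling chain of the receptor complex, was at 297 CPM in sgRNA-P1 T cells and 289 CPM in mock T cells. The coreceptor gene Cd4 was at 655 CPM in sgRNA-P1 T cells and 656 CPM in mock T cells, and Cd8a at 401 CPM and 396 CPM. Cd247, the zeta chain gene, had a log2 fold change of -0.20 [-0.25 to -0.15] and is uncertain, since its exons share 3007 bases with those of Pou2f1 on the other strand and the strand setting is not known. The part of Pou2f1 reads in its count was not tested. Tcf7, a factor of the T cell lineage, was at 1632 CPM in sgRNA-P1 T cells and 1734 CPM in mock T cells. The medians were 0.03 for receptor partners, 0.00 for coreceptors, -0.04 for signalling and -0.02 for enhancer factors, against -0.02 over all genes. Below 0 were 7 of the 8 signalling genes and 9 of the 11 enhancer factors, against 58.6% of all genes at 5 CPM. The interval lay below 0 for 4 of the 8 signalling genes, 4 of the 11 enhancer factors and Cd247, and above 0 for Cd3d, at 0.08 [0.03 to 0.12]. Over all genes at 5 CPM it lay below 0 for 10.4%. That share was not matched for level, and intervals narrow as reads rise. The lowest fold changes were -0.06 for signalling and -0.09 for enhancer factors. The grey band of all genes reached down to -0.11 at 100 to 150 CPM and -0.10 at 300 to 500 CPM. Up to 1000 CPM, every signalling gene and enhancer factor lay inside the band, and Cd247 lay below it. No band was computed above 1000 CPM. Whether these counts hold under other scaling was not tested.

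The recombinase genes Rag1 and Rag2 had 0 reads in both T cell libraries, where 3 reads would be 0.0751 CPM in sgRNA-P1 T cells and 0.0416 CPM in mock T cells. Dntt, the enzyme that adds bases at the joints, was at 5.46 CPM in sgRNA-P1 T cells and 5.20 CPM in mock T cells. Of the 8 recombination genes, 6 reached 5 CPM, with a median log2 fold change of 0.01. None was past 1.5-fold, against 0.11% of all genes at that level.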

How the data were processed

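The authors deposited whole-number read counts per gene for 10 columns. The tools named per the submitters' processing notes are HISAT2 and featureCounts, and the builds are hg38 and mm39. Not given in the sources used here are strand setting, annotation release and how reads fitting several places were treated. No molecular identifiers are named. Columns of a group matched 1 count divided in a fixed proportion (mean chi-square per gene 0.00231 to 0.00283) and were summed to 5 libraries. Where 1 library per group replaced replicates, a size rule took the place of a test: 1.5-fold at 5 CPM or more, with a prior of 1 read. Counts were scaled by TMM (edgeR 4.0.16, R 4.3.3). Intervals are exact conditional for folds, exact Poisson for levels and Wilson for shares, at 95%, on reads divided by 2, since 72.0 to 74.8% of totals under 10 reads were even once the read lost in the division was added back. T and B libraries were compared by edgeR's quasi-likelihood test, with Benjamini-Hochberg adjustment at 0.05 and DESeq2 1.42.0 as an alternative. The scripts were tested on simulated data.

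Sequences were read from GENCODE M21 on GRCm38, which held 256 of 264 members, and biotypes from RefSeq. Coordinates are those of the deposited table. Named segments were all constant and diversity genes, the 5 highest of Trav, Traj, Trbv and Trbj, the 2 highest of the gamma and delta classes, the 5 largest and 5 smallest fold changes at 5 CPM, the invariant chain segments and the 10 with most reads in B cells. Others, such as Traj8, Traj9, Trbj1-6, Trbv29 and the low Trav copies, were chosen after their values were seen. The members, lists and rules were chosen with earlier results of these data known. Alternatives for scaling, filters, prior, fold limit, segment sets and single columns were computed.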

Additional observations from a re-analysis of the deposited data

How the results depend on the processing

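No paired analysis was possible because the 2 columns of each group are 1 library divided in a fixed proportion, so the shared replicate numbers pair nothing. Scaling by total reads gave a log2 fold change of the summed members of 0.0026 and 2651 CPM in sgRNA-P1 T cells, and DESeq2 size factors gave 2618 CPM in mock T cells. No member passed 1.5-fold at 5 CPM; 8 of 129 did at 1 CPM (all genes 2.15%) and 47 of 224 with any read (all genes 26.3%), and 1 of 48 passed a lower fold limit (all genes 1.39%). Without Trav segments that have a near-identical copy, the Trav profiles differed by 5.34%. Constant genes alone gave 1679 CPM in sgRNA-P1 T cells and 1709 CPM in mock T cells. The other segments alone gave 933 CPM in sgRNA-P1 T cells and 927 CPM in mock T cells. In B cells they gave 0.145 CPM with sgRNA-P1, 0.0356 CPM with sgRNA-P2 and 0.0887 CPM in mock B cells. DESeq2 called 103 of 162 members higher in T cells (all genes 27.5%). With any B cell library left out, edgeR called every member tested, 161 to 163 (all genes 28.0 to 33.9%). With no filter it called 184 of 224 (all genes 22.2%). Leaving out a T cell library leaves only 1 of that cell type, so no count is given. Leaving out a column tests nothing for levels, shares or calls, since the columns are divisions of 1 library. Without column 2 of each group, edgeR called all 140 members tested (all genes 35.4%), and without column 1 all 144 (all genes 34.1%). In all these runs the members had their reads almost entirely in T cell libraries and had to differ. The counts of members called thus lend no support. Depth limits the folds: the interval reached past 1.5-fold for 4 of 48 members at 5 CPM or more and for 63 of 81 at 1 to under 5 CPM.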
